A study of Homo sapiens with 6 samples.

Results

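The subject is a set of NF-kB pathway genes in carfilzomib-resistant LP-1/Cfz cells, read against the parental line. The 46 listed genes cover the Rel family subunits, their IkB inhibitors, the kinases, adaptors, receptors and ligands that act above them, and a few of their targets. A gene was followed through the probe sets, the groups of array probes that measure 1 transcript, that name it alone. This gave 101 of the 54613 probe sets and 42 of the 19775 genes measured. BCL3, an atypical IkB protein, had 2 probe sets that also name a second gene and was not used, and TRAF2, BIRC3 and RIPK1 were not analysed here. LP-1 is a line of human multiple myeloma, a tumour of antibody-secreting plasma cells. LP-1/Cfz is its derivative resistant to 12 nM carfilzomib, an inhibitor of the proteasome, and was grown for 1 week with no drug before RNA was taken. The parental cells were never selected in the drug, and all cells shared a medium. The labels give it 4% fetal bovine serum, while the study's methods describe culture of the line with a higher content. Each group had 3 samples with 1 Affymetrix array each, and LP-1/Cfz is a single derived line. Nothing says that the samples of a group were separate cultures, so a p-value here reflects the spread of these samples alone, and that spread may be technical.

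NF-kB is a family of dimeric transcription factors held inactive in the cytoplasm. In the canonical branch, receptors such as those for tumour necrosis factor or bacterial products activate the IkB kinase complex, which marks IkB proteins for destruction by the proteasome and frees dimers of RELA, REL and NFKB1. In the non-canonical branch, the kinase MAP3K14 accumulates, activates CHUK and lets the proteasome trim the NFKB2 precursor, which then works with RELB. Mutations that raise either branch are known in multiple myeloma, and several inhibitors of the pathway are themselves induced by it, among them NFKBIA and TNFAIP3.

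Several members are written with a 10-base kB consensus, a form of the site that Rel dimers bind, near their own start. The form searched was GGGRNNYYCC, where R is A or G, Y is C or T and N is any base. This form is loose, and binding at a match was not tested. The promoters below run from 250 bases before to 50 bases after the start, from RefSeq on GRCh38.p14. They were chosen to show the site in subunit genes of both branches, in 2 inhibitors and in a ligand. Capitals mark every match on either strand.
NFKB1, chr4:102501109-102501408, plus strand: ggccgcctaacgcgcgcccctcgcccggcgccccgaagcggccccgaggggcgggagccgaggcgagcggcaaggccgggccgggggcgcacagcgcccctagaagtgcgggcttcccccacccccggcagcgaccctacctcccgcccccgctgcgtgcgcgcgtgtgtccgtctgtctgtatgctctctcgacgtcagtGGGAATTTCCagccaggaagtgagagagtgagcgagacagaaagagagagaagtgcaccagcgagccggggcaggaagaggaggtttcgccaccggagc
NFKB2, chr10:102394328-102394627, plus strand: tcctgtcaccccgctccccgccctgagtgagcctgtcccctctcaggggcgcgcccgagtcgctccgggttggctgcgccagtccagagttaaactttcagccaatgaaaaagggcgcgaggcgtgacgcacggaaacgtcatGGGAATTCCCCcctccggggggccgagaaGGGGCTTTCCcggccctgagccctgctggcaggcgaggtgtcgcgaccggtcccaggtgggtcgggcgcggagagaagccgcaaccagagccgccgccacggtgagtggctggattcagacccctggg
NFKBIA, chr14:35404700-35404999, minus strand: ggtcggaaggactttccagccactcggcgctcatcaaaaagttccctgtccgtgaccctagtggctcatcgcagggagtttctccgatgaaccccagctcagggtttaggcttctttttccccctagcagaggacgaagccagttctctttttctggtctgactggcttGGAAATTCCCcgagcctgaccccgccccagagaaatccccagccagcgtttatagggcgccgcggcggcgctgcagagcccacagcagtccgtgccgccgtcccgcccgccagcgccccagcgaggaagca
TNFAIP3, chr6:137867009-137867308, plus strand: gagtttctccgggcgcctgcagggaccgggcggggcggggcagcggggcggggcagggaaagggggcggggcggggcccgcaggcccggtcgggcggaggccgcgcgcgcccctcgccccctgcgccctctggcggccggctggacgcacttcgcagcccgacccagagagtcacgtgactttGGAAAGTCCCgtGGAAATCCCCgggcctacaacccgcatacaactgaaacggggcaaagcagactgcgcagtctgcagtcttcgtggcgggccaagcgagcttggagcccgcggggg
LTB, chr6:31582376-31582675, minus strand: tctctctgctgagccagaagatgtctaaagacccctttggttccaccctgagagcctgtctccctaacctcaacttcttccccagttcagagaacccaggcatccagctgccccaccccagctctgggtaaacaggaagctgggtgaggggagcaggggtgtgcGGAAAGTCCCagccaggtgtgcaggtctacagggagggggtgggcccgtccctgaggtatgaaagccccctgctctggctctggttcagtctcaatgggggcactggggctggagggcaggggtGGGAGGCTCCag
The match in NFKB1 began at -49 from the start and that in NFKBIA at -81. In the promoters shown, NFKB2 held overlapping matches at -107 and -106 and a separate match at -78, TNFAIP3 held matches at -67 and -55, and LTB at -86 and 38. NFKB1, NFKB2 and LTB also have promoters that are not shown. That of NFKB1 held no match and that of LTB held matches at -87 and 37. Of those of NFKB2, 1 held matches at -176 and -21 and 1 held none. Of 46 members, 41 had a promoter in the RefSeq table, 68 promoters in all. RELB, NFKBIE, IKBKB, CD40 and TNFRSF13C had none. The consensus was present in 22 of the 68 promoters (32.4%), which belonged to 18 genes, against 3956 of 35116 promoters (11.3%) in the whole table. It was present in 5 of 15 promoters of members lower in LP-1/Cfz, in 3 of 7 of members higher and in 12 of 40 of members that did not pass the test. Over all measured genes, the shares of promoters were 13.5% for genes lower, 14.1% for genes higher and 12.4% for those that did not pass. Alternative promoters of a gene can overlap. MYD88, TNFRSF1A and TNFRSF1B, which had the largest differences among members with a promoter entry, had no match in this window.

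Array values are log2 values in which each probe set was centred on a baseline that was not stated, so the values of different genes are not levels and were not compared. The plasma cell label of the cells could for the same reason not be checked by level. CD38 fell in LP-1/Cfz by 1.07 (log2), SDC1 and TNFRSF17 were higher by 0.38 and 0.27, and PRDM1, XBP1 and IRF4 did not pass the test. Of the markers of other cells measured, 3 of B cells, 4 of T and NK cells, 3 of myeloid and 4 of stromal cells, 0 passed it in limma. Their differences ran from -0.14 to 0.24, and 1 B cell and 1 myeloid marker had an unadjusted p under 0.05. LP-1/Cfz replicate 3 stood apart. Its values had an interquartile range of 0.338, and those of the other 5 arrays 0.23 to 0.264. In bulk RNA, fewer cells that express a gene and less of its RNA in each cell cannot be told apart.

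More members were lower in LP-1/Cfz than higher. A gene was said to have risen or fallen where the Benjamini-Hochberg adjusted p of limma was under 0.05 over all genes tested, with the mean of a gene's probe sets as its value. For a single probe set the same words refer to the fit over all probe sets. Among the 42 members measured, 13 fell and 4 rose, 40.5% in all, against 16.7% of all genes. Of all genes, 10% fell and 6.72% rose. The median log2 fold change was -0.08 over the members and 0.02 over all genes. Single probe sets gave the same picture, with 19 of 101 lower and 4 higher, where 11% of all probe sets passed the test, 6.76% lower and 4.25% higher. A fold change of 1.7 or more, found for 1.59% of all probe sets, was present in 4 member probe sets, of MYD88, TNFRSF1B, RELB and TRAF5, all lower. Without LP-1/Cfz replicate 3, 15 members passed the test, 14 of them among the 17. The members were listed with earlier results of these data known, so these counts are a description.

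**Figure D1:**
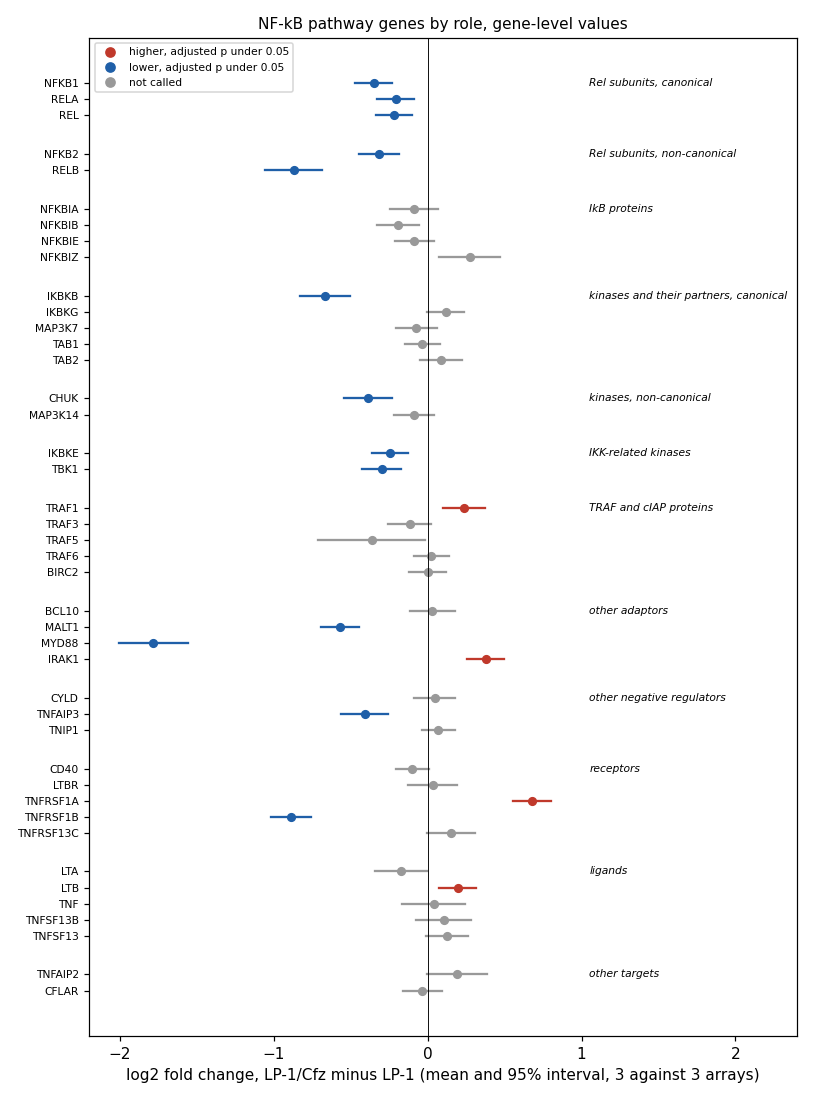
Gene-level log2 fold change, LP-1/Cfz minus LP-1, of the 42 measured members on the horizontal axis, grouped by role, with points for the difference between means of 3 and 3 arrays, bars for its 95% interval, and colours for the adjusted p of the limma fit. All 5 Rel subunits lie below 0, MYD88 lies farthest left at -1.78 and TNFRSF1A farthest right at 0.68.

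All 5 genes of the Rel family fell in LP-1/Cfz, and the change was largest in RELB, the partner subunit of the non-canonical branch. RELB values were -0.45, -0.35 and -0.65 in the 3 LP-1/Cfz arrays and 0.35, 0.40 and 0.41 in the LP-1 arrays. The groups did not overlap, and RELB fell by 0.87 on the log2 scale (SE 0.0858, adjusted p = 0.000666 in limma), which is 1.83-fold. NFKB2 encodes the precursor of the other non-canonical subunit. Its probe set 207535_s_at read -0.21, -0.24 and -0.42 in LP-1/Cfz and 0.23, 0.21 and 0.38 in LP-1, a log2 fold change of -0.56 (SE 0.0822, limma adjusted p = 0.0043). All LP-1/Cfz arrays were below all LP-1 arrays. The other NFKB2 probe sets differed by -0.31 and -0.08 and missed the threshold. As a gene, NFKB2 fell by 0.32 (limma adjusted p = 0.00674), and over those other probe sets alone the adjusted p was 0.0787.

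The canonical subunits also fell. NFKB1, the precursor of the subunit that pairs with RELA, had values of -0.20, -0.17 and -0.13 in LP-1/Cfz and 0.18, 0.13 and 0.24 in LP-1. The groups did not overlap, and NFKB1 fell by 0.35 (SE 0.0616, limma adjusted p = 0.00938). REL, the subunit best known from lymphocytes, fell by 0.32 (SE 0.0618, limma adjusted p = 0.0138) at probe set 228812_at. That probe set read 1.31, 1.35 and 1.22 in LP-1/Cfz and 1.63, 1.63 and 1.59 in LP-1, again with no overlap, and the other 4 probe sets of REL lay below 0 and did not pass. RELA, the main activating subunit, fell by 0.28 (limma adjusted p = 0.0468) at 1 of its 2 probe sets and fell by 0.21 as a gene (adjusted p = 0.0313). Its call was lost when any 1 of the 6 arrays was left out, with gene-level adjusted p of 0.0516 to 0.119. The REL call was lost without LP-1 replicate 1, 2 or 3, with gene-level adjusted p of 0.0855, 0.0672 and 0.0833. NFKB1, NFKB2 and RELB kept their gene-level call in all 6 such fits. NFKB1 has 1 probe set, and the call of that probe set was lost without LP-1 replicate 3 (limma adjusted p = 0.0508).

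**Figure D2:**
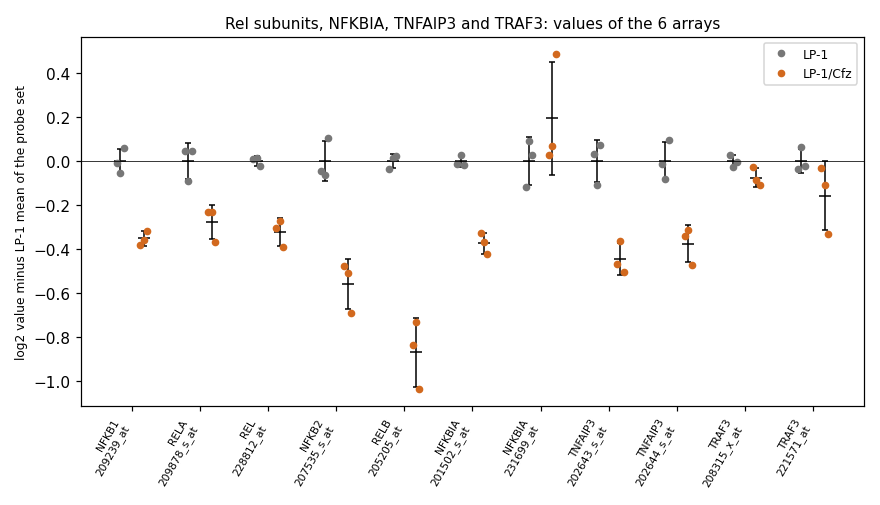
Values of the 6 arrays for the called Rel subunit probe sets and for NFKBIA, TNFAIP3 and TRAF3, plotted as log2 distance from the mean of the LP-1 arrays, 1 point per array with the mean and SD of each group of 3. LP-1/Cfz lies below LP-1 in every subunit, the NFKBIA probe sets differ in direction, and the groups nearly meet or overlap for TRAF3.

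NFKBIA encodes IkB-alpha, the inhibitor that is destroyed when the canonical branch is switched on and made again as a target of it. Its probe set 201502_s_at read -0.17, -0.21 and -0.26 in LP-1/Cfz and 0.15, 0.19 and 0.14 in LP-1. These values did not overlap and this probe set fell by 0.37 (SE 0.0599, limma adjusted p = 0.00636), a call kept with any 1 array left out. The other NFKBIA probe set, 231699_at, read -0.02, 0.02 and 0.44 in LP-1/Cfz and -0.17, 0.04 and -0.02 in LP-1. There the groups overlapped, the difference was 0.19 (limma adjusted p = 0.407), and LP-1/Cfz replicate 3 gave the highest value. The probe sets thus disagreed, and the mean of both did not pass the test (-0.09, adjusted p = 0.43).

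The other IkB proteins missed the limma threshold too, and of all 4 measured, 2 had an unadjusted p under 0.05. NFKBIB, a second cytoplasmic inhibitor, differed by -0.23 to -0.18 over its 3 probe sets, with a gene-level interval of -0.33 to -0.06 and a limma adjusted p of 0.0604. It passed with array weights (0.0363), without LP-1/Cfz replicate 2 (0.0314) and without the probe sets ending in _x_at or _s_at (0.0375). NFKBIB also passed when the probe set with the highest mean stood for the gene. NFKBIE differed by -0.09. NFKBIZ, a nuclear family member that is itself induced by the pathway, had a gene-level difference of 0.27 with an interval from 0.07 to 0.47 (limma adjusted p = 0.0727), and passed after a second quantile normalization (0.41, adjusted p = 0.0137).

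TNFAIP3, also called A20, removes and edits ubiquitin chains on proteins of the canonical branch and is a classical target of it. Both of its probe sets fell. Probe set 202643_s_at read -0.23, -0.13 and -0.27 in LP-1/Cfz and 0.27, 0.13 and 0.31 in LP-1, a log2 fold change of -0.45 (SE 0.0743, limma adjusted p = 0.00764). Probe set 202644_s_at read -0.15, -0.12 and -0.27 against 0.18, 0.12 and 0.29, a log2 fold change of -0.38 (SE 0.0746, limma adjusted p = 0.0161). The groups did not overlap at either probe set. The call of the latter was lost without LP-1 replicate 1 (0.0579) or 3 (0.0706), while TNFAIP3 as a gene kept it in all 6 fits. CYLD, a deubiquitinase that restrains both branches, did not pass at any of 7 probe sets (-0.18 to 0.25), nor did TNIP1, a partner of TNFAIP3 (0.00281 and 0.13). Of the 12 listed negative regulators, TRAF and cIAP proteins that hold MAP3K14 in check included, 9 were measured and TNFAIP3 alone passed the test. That is 11.1%, where 16.7% of all genes passed.

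Among the kinases, the subunits of the IkB kinase complex moved unequally. IKBKB, its catalytic subunit in the canonical branch, fell by 0.67 as a gene (SE 0.0701, limma adjusted p = 0.000624) and at all 3 of its probe sets. Probe set 209342_s_at read -0.47, -0.59 and -0.87 in LP-1/Cfz and 0.07, 0.08 and 0.10 in LP-1. Probe set 211027_s_at read -0.62, -0.54 and -0.68 against 0.09, -0.0094 and 0.08. Probe set 209341_s_at read -0.39, -0.45 and -0.67 against 0.09, 0.16 and 0.06. In each, the LP-1/Cfz arrays lay below every LP-1 array and replicate 3 was the lowest, and the log2 fold changes were -0.73, -0.67 and -0.60. CHUK, the catalytic subunit that also serves the non-canonical branch, read -0.01, 0.03 and -0.11 in LP-1/Cfz and 0.27, 0.46 and 0.34 in LP-1. The groups did not overlap and CHUK fell by 0.39 (SE 0.0743, limma adjusted p = 0.0139), though the probe set call was lost without LP-1 replicate 2 (0.0551) or 3 (0.0542). IKBKG, the regulatory subunit that binds ubiquitin chains, had differences of 0.10 and 0.14 and did not pass.

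MAP3K7, the kinase that activates the complex, and its partners TAB1 and TAB2 did not pass at any of their 8 probe sets, with gene-level differences of -0.08, -0.04 and 0.09. MAP3K14, the kinase that starts the non-canonical branch, differed by -0.09, with an interval of -0.22 to 0.04 (limma adjusted p = 0.34). The IKK-related kinases, better known for interferon induction, both fell. IKBKE read -0.17, -0.14 and -0.25 in LP-1/Cfz and 0.18, 0.16 and 0.14 in LP-1 at probe set 204549_at, a log2 fold change of -0.34 (SE 0.0607, limma adjusted p = 0.00999). TBK1 read -0.26, -0.27 and -0.39 against -0.02, -0.000551 and 0.000551, a log2 fold change of -0.30 (SE 0.0632, limma adjusted p = 0.0208). Groups did not overlap for either gene. The gene-level call of IKBKE was lost without LP-1 replicate 1 (0.0654), 2 (0.0522) or 3 (0.0611), and the probe set call of TBK1 without LP-1 replicate 1 (0.074), 2 (0.0755) or 3 (0.0842).

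TRAF proteins link receptors of the tumour necrosis factor family to the kinases, and TRAF3 keeps MAP3K14 low by directing its destruction. TRAF3 did not pass the test. Its probe set 221571_at read -0.03, -0.10 and -0.33 in LP-1/Cfz and -0.03, 0.07 and -0.02 in LP-1, a difference of -0.16 (limma adjusted p = 0.328) with overlapping groups. Its probe set 208315_x_at read -0.0011, -0.06 and -0.08 against 0.05, 0.0011 and 0.02, a difference of -0.08 (adjusted p = 0.498). The gene-level interval of TRAF3 ran from -0.26 to 0.02. BIRC2, a ubiquitin ligase that acts with TRAF3, differed by -0.00141 (interval -0.12 to 0.12).

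TRAF1, a member induced by the pathway itself, was higher in LP-1/Cfz. Its probe set 205599_at read -0.02, 0.0060 and 0.15 in LP-1/Cfz and -0.35, -0.46 and -0.18 in LP-1, higher by 0.38 (SE 0.0882, limma adjusted p = 0.0311) with no overlap. The other TRAF1 probe set differed by 0.09 and did not pass. Its probe set call held without LP-1 replicate 3, and was lost without any other array (0.0584 to 0.107). The gene-level call was lost without LP-1/Cfz replicate 2 (0.0863) or 3 (0.0637) or LP-1 replicate 1 (0.119) or 2 (0.104). TRAF5, which acts below several receptors of activated lymphocytes, had the widest spread. Its probe set 204352_at read -2.37, -2.32 and -1.57 in LP-1/Cfz and -1.42, -1.50 and -0.96 in LP-1, with no overlap, a difference of -0.79 and a limma adjusted p of 0.0657. The other TRAF5 probe set differed by 0.06. TRAF5 as a gene passed the test without LP-1/Cfz replicate 3 (-0.53, limma adjusted p = 0.0222), and also with array weights. TRAF6, the ligase that acts below MYD88, differed by 0.02 and did not pass.

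MYD88, the adaptor that connects Toll-like and interleukin receptors to the canonical branch, had the largest difference of all members. It read -1.38, -1.78 and -1.64 in LP-1/Cfz and 0.17, 0.16 and 0.22 in LP-1, far apart beside the spread within either group. MYD88 fell by 1.78 (SE 0.102, limma adjusted p = 4.29e-05), or 3.44-fold, the change of rank 44 by size among all 19775 genes. It was measured by 1 probe set, as were RELB, NFKB1, CHUK, TBK1, TNFRSF1A and TNFRSF1B. The ranking sets it beside genes averaged over several probe sets. IRAK1, the kinase that MYD88 recruits, moved the other way. Its probe set 1555784_s_at read 0.44, 0.46 and 0.36 in LP-1/Cfz and -0.08, -0.15 and -0.000396 in LP-1, a rise of 0.50 (SE 0.0671, limma adjusted p = 0.00289) with no overlap. Probe set 201587_s_at of IRAK1 rose by 0.26 (limma adjusted p = 0.0292), a call kept only without LP-1/Cfz replicate 3 (0.0301) and lost without each other array (0.0743 to 0.102).

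MALT1, the protease of the complex that antigen receptors use to reach the kinases, fell at all 3 of its probe sets. Probe set 210017_at read -0.50, -0.51 and -0.65 in LP-1/Cfz and 0.05, 0.10 and 0.07 in LP-1. Probe set 208309_s_at read -0.40, -0.44 and -0.49 against 0.06, 0.10 and 0.15. Probe set 210018_x_at read -0.36, -0.44 and -0.49 against 0.10, 0.07 and 0.16. The groups did not overlap at any of them, and the gene fell by 0.57 (SE 0.0525, limma adjusted p = 0.000318). BCL10, its partner in that complex, did not pass at any of 3 probe sets (-0.11 to 0.20).

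The receptors for tumour necrosis factor moved in opposite directions. TNFRSF1A, the widely expressed receptor that signals through RIPK1 to the canonical branch and to cell death, read 0.13, 0.26 and 0.16 in LP-1/Cfz and -0.50, -0.50 and -0.48 in LP-1. It rose by 0.68 (SE 0.0625, limma adjusted p = 0.000476), and the groups were well separated. TNFRSF1B, the receptor more restricted to blood cells, read -0.73, -0.67 and -0.83 in LP-1/Cfz and 0.18, 0.13 and 0.13 in LP-1. It fell by 0.89 (SE 0.065, limma adjusted p = 0.000144), or 1.85-fold. Both calls held with any 1 array left out. CD40, LTBR and TNFRSF13C, receptors that feed the non-canonical branch in lymphoid cells, differed by -0.10, 0.03 and 0.15 as genes and did not pass.

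**Figure D3:**
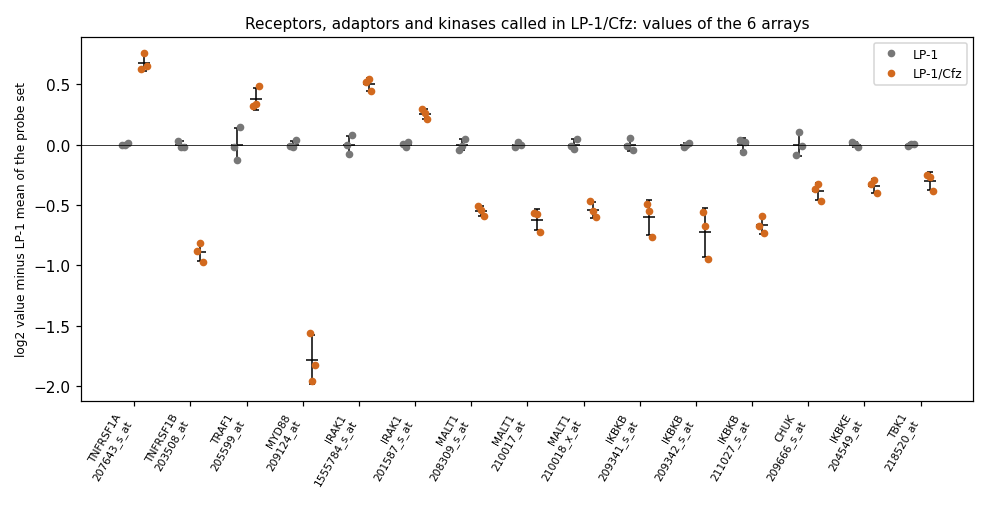
Values of the 6 arrays for called probe sets of receptors, adaptors and kinases, plotted as log2 distance from the mean of the LP-1 arrays, 1 point per array with the mean and SD of each group of 3. TNFRSF1A, TRAF1 and IRAK1 lie above LP-1 and the other genes below, with MYD88 lowest at -1.78.

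Of the 5 ligands, LTB, a membrane lymphotoxin that signals through LTBR, was higher by 0.19 as a gene (SE 0.0523, limma adjusted p = 0.0408). Neither of its probe sets passed on its own (0.24, adjusted p = 0.0846, and 0.15, adjusted p = 0.39). The LTB call was kept without LP-1/Cfz replicate 2 (0.0306) and lost without each other array, with adjusted p of 0.0719 to 0.129. TNF differed by 0.04 with an interval of -0.17 to 0.24, LTA by -0.18, and the B cell survival factors TNFSF13B and TNFSF13 by 0.10 and 0.13. None of these 4 passed the test.

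Branches of the pathway could be set side by side from these counts. For comparison, 16.7% of all genes passed the test, 10% lower and 6.72% higher. Of the 18 members assigned to the canonical branch, 16 were measured, 6 fell and 2 rose (50% in all), with a median of -0.06. Of the 13 assigned to the non-canonical branch, 12 were measured, 3 fell and 1 rose (33.3% in all), with a median of -0.10. The branches share no test here, and their difference was not tested. Of the 18 members that are also targets, 16 were measured, 5 fell and 2 rose (43.8% in all). NFKB1, REL, NFKB2, RELB and TNFAIP3 were the lower ones, while TRAF1 and LTB were the higher ones. TNFAIP2 and CFLAR, the last a brake on cell death with 14 probe sets, differed by 0.19 and -0.04 as genes and did not pass. The 25 members that did not pass had differences of -0.36 to 0.27, with 95% intervals reaching from -0.71 to 0.47.

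A further 117 genes of the pathway were read from lists that hold none of the 46 members, and 109 were measured. Of these, 22 fell and 11 rose (30.3% in all, against 16.7% of all genes), with a median of 0.03. Among 34 further targets, 10 fell and 2 rose (35.3% in all), and their median was 0.03. CXCL10, a chemokine that interferons also induce, fell by 2.35 (SE 0.153, limma adjusted p = 5.34e-05), FAS, a death receptor, fell by 1.81, CD44, an adhesion receptor, fell by 1.49 and ICAM1, an adhesion molecule, fell by 1.06. FAS passed at all 5 of its probe sets, ICAM1 at all 3 and CD44 at 8 of 13. GADD45B, a stress response gene, rose by 0.54 and CD69, an activation marker of lymphocytes, by 0.31. The single probe set of CD69 did not pass in the fit over all probe sets. A list of 4 further targets used in myeloma NF-kB indexes leaves out any index gene among the 46 members, so it is not a whole index. In it, CD74, a chaperone of MHC class II proteins, fell by 1.96. IL2RG, a chain shared by several cytokine receptors, fell by 1.19 and PLEK, a substrate of protein kinase C in blood cells, fell by 0.80. WNT10A, a secreted signalling protein, rose by 0.64. It passed at 1 of its 2 probe sets, and CD74 at 2 of 3. These lists were also written with earlier results known.

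Other receptors, adaptors and ubiquitin enzymes of the pathway mostly did not pass. The share called was 19% of further receptors and 15.8% of further adaptors and kinases, both near the 16.7% of all genes. It was 36.4% of the genes of linear ubiquitin and other ligases. Of 21 further receptors, TNFRSF21 fell by 1.02, TNFRSF11A, a receptor of bone-resorbing cells, fell by 0.66 and TLR1 fell by 0.40, and TNFRSF17, the plasma cell receptor for TNFSF13B and TNFSF13, rose by 0.27. Of 19 further adaptors and kinases, PRKCQ, a kinase above the MALT1 complex in T cells, fell by 0.96 and UBE2N, a ubiquitin-conjugating enzyme, fell by 0.21, and PRKCB, a related kinase used in B cells, rose by 0.17. Of 11 genes of linear ubiquitin and other ligases, PELI2 and PELI1, ligases that act on IRAK proteins, had log2 fold changes of -0.64 and -0.39 and both fell, RBCK1, a part of the linear ubiquitin ligase, fell by 0.20 and FBXW11, which recognises phosphorylated IkB, rose by 0.21. The further negative regulators were the list with more genes higher, 5 of 20 (25%), against 1 lower (5%). Of all genes, 6.72% rose and 10% fell. NKIRAS1, which binds IkB proteins, rose by 0.68, PDLIM2, a ligase for RELA, by 0.47, SIGIRR, a brake on interleukin and Toll-like receptors, by 0.47 and COMMD1 by 0.20, and TNIP2, a relative of TNIP1, fell by 0.23. OTUB1, a deubiquitinase, rose by 0.19. The median of this list was 0.11. Limma adjusted p of the named further genes lay between 8.3e-07 (CD74) and 0.0489 (COMMD1). CD69, TNFRSF17, TLR1, PRKCB, UBE2N, RBCK1, PELI1, FBXW11, TNIP2, COMMD1 and OTUB1 lost their call in at least 1 of the 6 fits with an array left out. PRKCB passed in 0 of these 6 fits, and CD69, RBCK1, FBXW11, COMMD1 and OTUB1 in 1 each. TLR1 passed in 2, UBE2N and TNIP2 in 3 each, TNFRSF17 in 4 and PELI1 in 5. No probe set of RBCK1, FBXW11 or COMMD1 passed on its own in the direction of the gene.

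**Figure D4:**
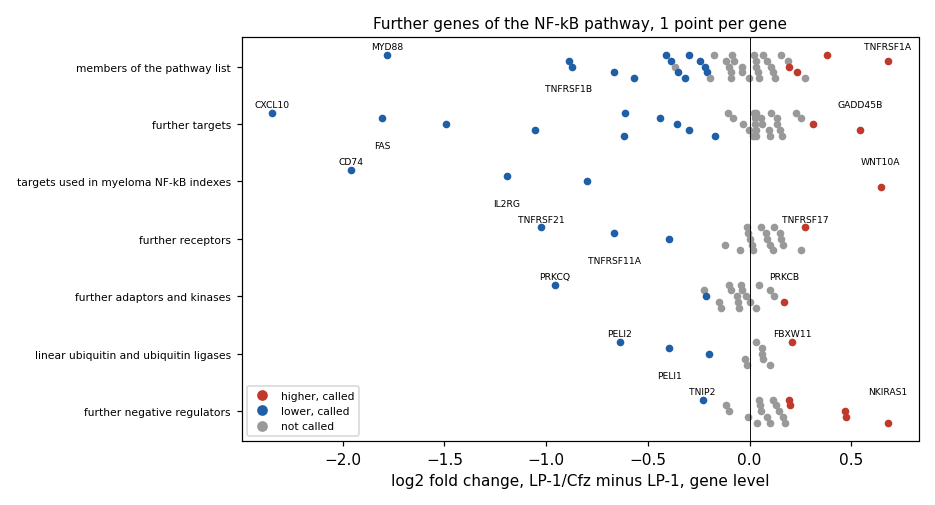
Gene-level log2 fold change, LP-1/Cfz minus LP-1, on the horizontal axis for the 42 members and the 109 measured further genes, 1 point per gene in a row per list, coloured by the adjusted p of the limma fit. The largest falls are among targets, with CXCL10 at -2.35, while 5 of 20 further negative regulators lie to the right in red.

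Several members lie among neighbours that moved the same way. For each member, the 10 measured genes on either side were read in the order of a RefSeq table on GRCh38.p14. Among all genes, 10% fell and 6.72% rose. Of the 20 neighbours of IKBKB on chromosome 8, 12 fell, with a median of -0.43. Of those of CHUK on chromosome 10, 11 fell and 2 rose, with a median of -0.25. Of those of IRAK1 on chromosome X, 10 rose, with a median of 0.27, and of those of IKBKG, a set that overlaps it, 11 rose. The part of these stretches in the values of IKBKB, CHUK and IRAK1 was not tested. Among neighbours of NFKB2, 6 fell, and around RELB 6 fell and 2 rose. Members that did not pass could have such neighbours too. Around TNIP1 6 rose and 1 fell, and around TRAF5 5 fell and 2 rose. MYD88 had 3 lower neighbours and a median of 0.00265, and MALT1, TNFRSF1A and TNFRSF1B had no lower neighbour and 1, 2 and 2 higher ones.

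**Figure D5:**
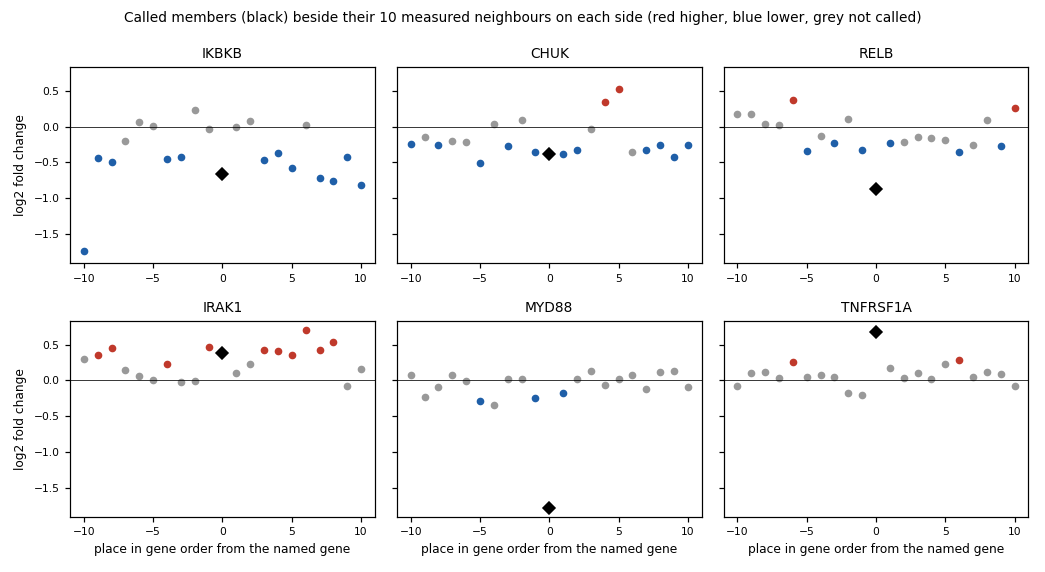
Log2 fold change, LP-1/Cfz minus LP-1, of 6 called members (black diamonds) and of the 10 measured genes on each side in gene order (points, red higher, blue lower, grey not called). Most neighbours of IKBKB and CHUK lie below 0 and most of IRAK1 above, while MYD88 and TNFRSF1A stand apart from theirs.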

How the data were processed

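Total RNA of 3 LP-1/Cfz and 3 LP-1 samples had been hybridised to Affymetrix human genome arrays. The values deposited by the authors are log2 values over 54613 probe sets, and the submitters' notes name RMA for them. The values of a probe set are relative to a baseline, not given in the sources used here. Scale and direction were checked on 102 fold changes that the study prints, all within 0.015. Of the probe sets, 41091 name a single gene, 1801 several and 11721 none. Only those that name a single gene entered the gene values.

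The groups were compared in limma 3.58.1 under R 4.3.3 (lmFit and eBayes, two-sided, no covariate). Benjamini-Hochberg adjustment ran over all 54613 probe sets and, for means of the probe sets that name a gene alone, over 19775 genes. The call threshold was an adjusted p of 0.05. With 3 against 3 arrays an exact permutation test cannot go below p = 0.1, and the number of arrays limits the precision. The fits were tested on simulated data. Motifs were searched and figures drawn in Python 3.11.15, on both strands of promoters of 300 bases.

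Members, lists and tests were chosen with earlier results of these data known. The 6 array values are given for called member probe sets with a log2 fold change of 0.3 or more in size and for every NFKBIA and TRAF3 probe set, and for a TRAF5 probe set named after its values were seen. Other called members are given by fold change, and the rest by range. From each further list, up to 4 called genes in each direction with the largest change are named, and OTUB1 was named, and gene order read, after values had been seen. Alternatives were the replicate number as a block, other normalizations, array weights, robust moderation, filters, size cutoffs, other rules for probe sets of a gene, and each array left out. A planned search of IkB proteins for the motif that marks them for the proteasome was not run, since protein sequences were not used here. All 6 samples were used. Any 2 arrays shared at most 25 identical values.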

Additional observations from a re-analysis of the deposited data

How the results depend on the processing

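The named calls kept their direction under every alternative run, but not always their size. CD44, GADD45B and WNT10A shrank to log2 fold changes of as little as -0.0567, 0.159 and 0.175. Without the test against a minimum fold change, their highest limma adjusted p values were 0.744, 0.29 and 0.227. Each of these genes passed with any 1 array left out. NFKB2 and TRAF1 as genes shrank too, as given below. Of 23 member probe sets and 17 member genes called, 8 and 6 passed against a minimum fold change of 1.2 (limma treat). By size alone, 4 member probe sets and 3 member genes reached a fold change of 1.7, and the probe sets include that of TRAF5, which was not called. All probe sets called, 6014, came in the same way to 1312 and 867, all genes called, 3312, to 624 and 339, and further genes called, 33, to 15 and 9. Without probe sets whose identifiers end in _x_at or _s_at, 10 member genes and 2194 of all genes were called, with 17098 genes tested. RELA, IKBKB, CHUK, IRAK1, TNFAIP3 and TNFRSF1A have only such probe sets and were left out, NFKB2 (adjusted p = 0.0787) and LTB (0.347) were tested and lost in limma, and NFKBIB was gained.

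Members that did not pass the test could change sign. NFKBIA as a gene came to 0.195 without those probe sets. Taking the probe set with the highest mean, which on centred values need not pick the most expressed one, ended the gene-level calls of NFKB2, TRAF1 and LTB. NFKB2 came to -0.0839 (limma adjusted p = 0.754) and TRAF1 to 0.0864 (0.575), while NFKBIB was gained. The same rule gave 0.195 for NFKBIA, 0.0632 for TRAF5, -0.0139 for TRAF6 and -0.106 for BCL10. The other changes of sign were close to 0. Array weights gave 0.0162 for BIRC2, -0.0204 for BCL10 and -0.0192 for TNF, the median of probe sets -0.000845 for BCL10, and LTBR came to -0.0296 without the _x_at and _s_at probe sets. With an array left out, TRAF6 ran from -0.00352 to 0.0506, BIRC2 from -0.0297 to 0.0241, BCL10 from -0.0151 to 0.0853, LTBR from -0.0141 to 0.0887 and TNF from -0.0258 to 0.119.

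With 1 array left out, 16 to 23 member probe sets, 12 to 16 member genes, 3395 to 5355 of all probe sets, 2080 to 3183 of all genes and 21 to 30 further genes were called. The lowest counts came without LP-1 replicates. Without LP-1 replicate 1, 2 or 3, 3453, 3530 and 3395 probe sets and 2100, 2157 and 2080 genes were called, and 21, 22 and 21 further genes. NFKB1, NFKB2, RELB, IKBKB, CHUK, TBK1, MALT1, MYD88, IRAK1, TNFAIP3, TNFRSF1A and TNFRSF1B kept their gene-level call in all 6 of these fits. NFKB1, CHUK and TBK1 have 1 probe set each, so their gene values are the values of that probe set. For them the gene-level and probe set fits differ only in the other features fitted, and the probe set calls were not all kept. LTB also lost its call with arrays set to the same median (adjusted p = 0.0506 in limma) or with genes of the least spread left out (0.0631). The probe set calls of NFKB1 and IKBKE ended without LP-1 replicate 3 (adjusted p = 0.0508) and LP-1 replicate 1 (0.0505) in limma.

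With the replicate number as a block, 21 member probe sets and 15 member genes were called, 14 of the latter shared with the fit without the replicate block. RELA, REL and LTB were lost and TRAF5 was gained, each in limma, with 2641 of all genes and 25 further genes called. Same-numbered arrays of the groups deviated together with correlations of -0.0487, 0.126 and -0.00556, so the numbers were not taken as pairs.

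The centred values keep no signal over background, so members near background could not be told from others.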
